A study of Mus musculus with 12 samples.

Results

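Greb1 and Pgr are textbook target genes of the estrogen receptor, and their loci were read here in 12 ATAC-seq peak lists from mouse fibroblasts. The Greb1 window held 97 peaks and the Pgr window 24, so 121 of the 658361 peaks in the 12 lists were examined. A peak belonged to a locus when its summit lay in the gene body or within 50000 bp upstream of it. In the mouse build GRCm38 (mm10), Greb1 (ENSMUSG00000036523.16) spans chr12:16670615-16800886 on the minus strand, and its window ran on to base 16850886. Pgr (ENSMUSG00000031870.16) spans chr9:8899833-8968611 on the plus strand, and its window began at base 8849833. Positions are given as the distance in bp from the first annotated start of the gene, positive in the direction of transcription.

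All libraries came from primary skeletal muscle fibroblasts of Aromhum mice, which carry the human aromatase gene CYP19A1 and form estrogen from androgen in muscle. There were 4 groups of 3 libraries: vehicle (ethanol and DMSO), E2 at 10 nM, E2 at 10 nM plus fulvestrant at 100 nM, and fulvestrant at 100 nM. The labels give a time of 1 hour, counted from the addition of E2 or ethanol, before which, per the methods of the study, the cells had 3 hours in fulvestrant or DMSO. Every group carried the transgene and the cells had been starved of serum overnight and passaged once, so no wild-type or freshly isolated cells were compared. The labels do not say whether replicates came from separate animals or cultures, so each p-value measures the spread between these libraries, which may be technical.

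Estradiol (E2) binds the nuclear receptor ESR1, which then binds a palindromic DNA sequence, the estrogen response element (ERE), often far from the promoter it acts on. Fulvestrant competes with E2 for the receptor and leads to its degradation. Greb1 encodes a cofactor of estrogen receptor that is induced in estrogen-responsive tissues, and Pgr encodes the progesterone receptor, whose induction is a classical sign of estrogen action in the reproductive tract and breast. In ATAC-seq a transposase inserts adapters into accessible DNA, so that a peak marks DNA open to the enzyme.

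The 2 sequences below hold the EREs that lay within 100 bp of a summit in at least 2 libraries. Both are from the GRCm38 reference, 5′ to 3′ on the strand of the gene, and capitals mark the 13 bases of the element.
Greb1 intronic ERE, chr12:16760437-16760637, minus strand: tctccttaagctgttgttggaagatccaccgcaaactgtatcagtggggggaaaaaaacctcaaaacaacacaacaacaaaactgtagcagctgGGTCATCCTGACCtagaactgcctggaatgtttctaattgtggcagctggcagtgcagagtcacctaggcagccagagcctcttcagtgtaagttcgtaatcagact
Pgr intronic ERE, chr9:8937755-8937955, plus strand: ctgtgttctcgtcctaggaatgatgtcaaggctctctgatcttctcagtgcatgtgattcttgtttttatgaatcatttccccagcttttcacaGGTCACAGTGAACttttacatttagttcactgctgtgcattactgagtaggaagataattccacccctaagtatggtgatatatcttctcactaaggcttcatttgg

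The lists differed in length, from 30062 peaks in fulvestrant replicate 3 to 110724 in vehicle replicate 2, and the share of peaks with q of 0.05 or less ranged from 7.35% to 46.4%. The relative depth, read as the commonest background of a list, ranged from 0.713 to 1.42 tags per window. A protein-coding gene had a peak within 3000 bp of a start in 17.3% of cases in E2 replicate 3 and in 62.7% in fulvestrant replicate 1. The 4 libraries numbered 1 had 22 to 36 peaks on chromosome Y and the 8 others 854 to 1148. The paper states that its mice were male, and the cause of this split was not tested. Promoters of the 7 fibroblast markers (Pdgfra, Col1a1, Col1a2, Dcn, Lum, Thy1, Pdgfrb) were each called in at least 3 libraries, from 0 of 7 in E2 replicate 3 to 7 of 7 in E2 replicate 1. Of the myogenic markers Pax7, Myod1, Myf5, Des and Myog, the first pair had no promoter peak in any library, and at most 2 of the 5 were called in a library. Des was called in 6 libraries, Myog in 4 and Myf5 in 1. At most 3 of 3 endothelial markers (Pecam1, Cdh5, Kdr) and 1 of 3 immune markers (Ptprc, Cd68, Adgre1) were called in a library. Pecam1 and Cdh5 were called in 5 libraries each, Kdr and Cd68 in 2 each, and Ptprc and Adgre1 in 1 each. The fibroblast markers were called in 3 (Lum) to 9 (Col1a1 and Col1a2) libraries, so they overlap with the myogenic and endothelial markers.

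Over all peaks of the Greb1 window, 54 summits lay in introns, 14 in exons and 29 upstream of the gene. The 97 peaks fell into 63 merged regions. Counting libraries with a summit inside the window, 45 were called in 1 library, 12 in 2 libraries, 4 in 3 libraries and 2 in 4 or more. Of the 12, the region chr12:16850602-16851334 crosses the upstream edge of the window and was called in 8 libraries over its full length. Only E2 plus fulvestrant replicate 2 and fulvestrant replicate 2 had its summit inside the window, with fold enrichments of 2.27 and 4.82. Of all 435284 merged regions in the genome, 6.57% were called in at least 4 libraries, counted over the full region. Apart from those of the strongest region, the 85 Greb1 peaks had fold enrichments of 2.22 to 4.82 (median 2.97) and summit pileups of 3 to 10 tags. Of these, 12 had a q of 0.05 or less, and the highest −log10 q was 3.28. The peaks outside that region were therefore near the limit of what the caller lists at this depth, and an absent call does not mean closed DNA.

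**Figure D1:**
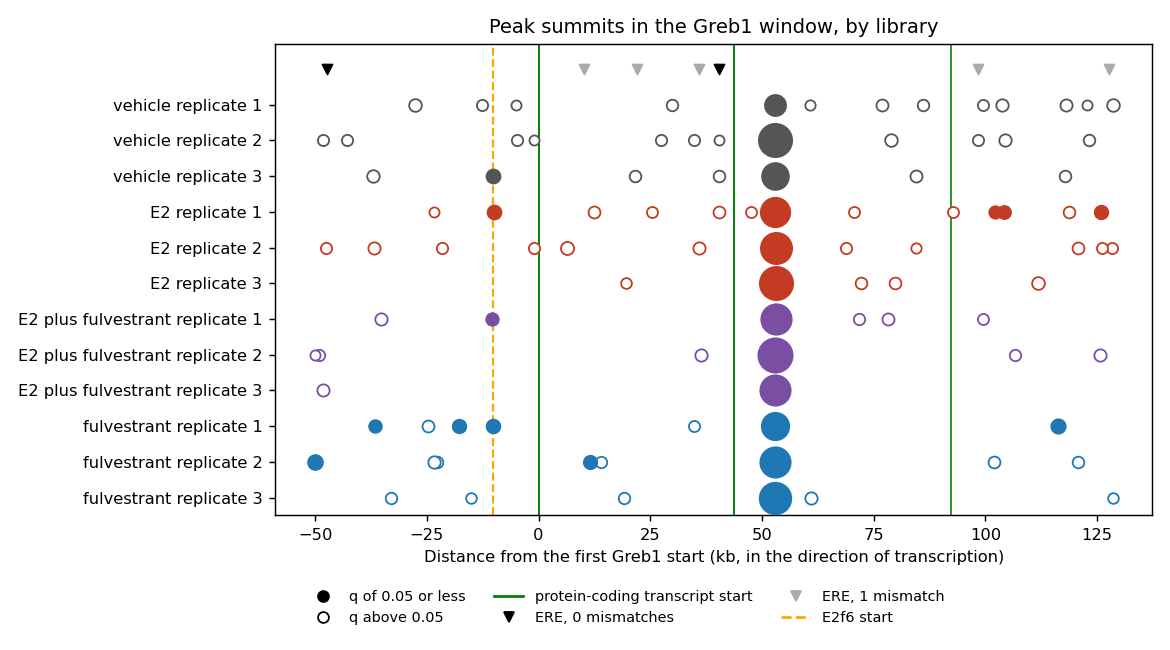
Summits of the 97 peaks in the Greb1 window, by library (rows) and distance from the first start in kb (x axis). Circle area is proportional to fold enrichment, filled circles have q of 0.05 or less, green lines are starts of protein-coding transcripts, the dashed line is the start of E2f6, and triangles are EREs with 0 (black) or 1 (grey) mismatch. The intronic site 52971 to 53046 bp into the gene is the only site called in all 12 libraries.

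The strongest Greb1 peak lay in an intron, with summits 52971 to 53046 bp downstream of the first start and within chr12:16747718-16748017. Regions called in all 12 libraries made up 0.166% of merged regions. It had the highest −log10 q of the Greb1 window in each of the 12 libraries. Its fold enrichments were 9.69, 24.2 and 15.7 in vehicle replicates 1 to 3 and 19.0, 21.3 and 24.2 in the E2 replicates. They were 20.3, 25.6 and 20.1 in the E2 plus fulvestrant replicates and 16.5, 20.1 and 21.9 in the fulvestrant replicates. Vehicle replicate 1 was the lowest library and E2 plus fulvestrant replicate 2 the highest, and the ranges of all 4 treatments overlapped.

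The −log10 q at this site followed the same order at its ends. In vehicle replicates 1 to 3 it was 13.5, 84.8 and 35.2, and in the E2 replicates 54.0, 71.0 and 81.1. In the E2 plus fulvestrant replicates it was 62.2, 107 and 58.4, and in the fulvestrant replicates 47.0, 60.1 and 74.7. Mean fold enrichment was 21.5 ± 2.62 (SD, n = 3) in the E2 libraries, and in those given E2 plus fulvestrant it was 22 ± 3.15 (SD, n = 3). The difference of −0.516 was smaller than the spread between replicates (exact permutation test, two-sided, p = 0.70). With vehicle the mean was 16.5 ± 7.31 (SD, n = 3), and the exact two-sided permutation p was 0.40 for E2 against vehicle, 0.60 for fulvestrant against vehicle (19.5 ± 2.76, SD) and 0.30 for E2 plus fulvestrant against vehicle. Whether every read at this site belongs there, rather than to a similar site elsewhere in the genome, was not tested, and the ENCODE list of excluded regions was not used here to check it.

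**Figure D2:**
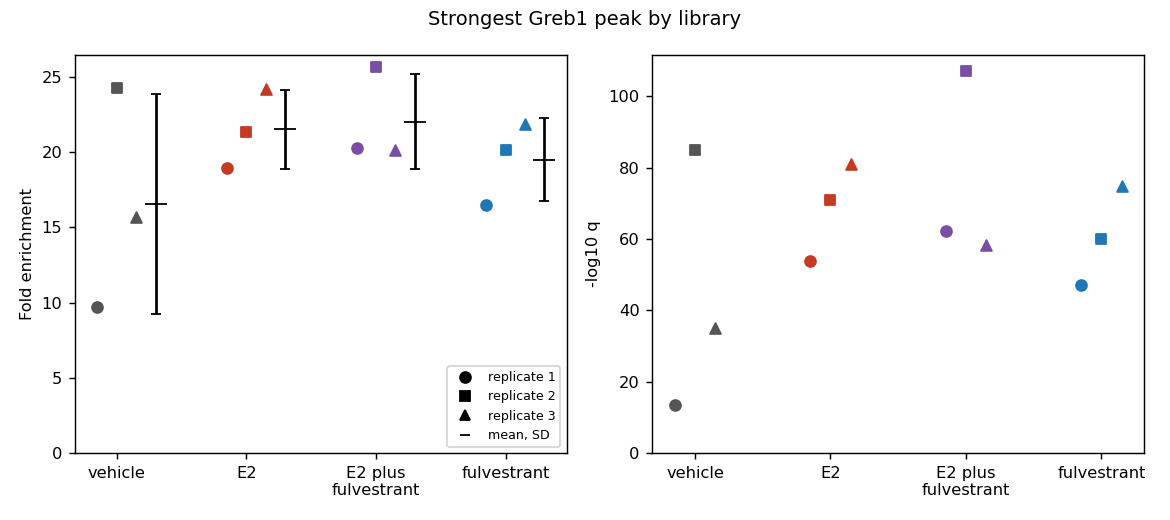
Fold enrichment (left) and −log10 q (right) at the strongest Greb1 peak, by treatment, with 1 point per library and a shape for each replicate number. Bars on the left are the mean with SD (n = 3), and the libraries of the 4 treatments overlap, from 9.69 in vehicle replicate 1 to 25.6 in E2 plus fulvestrant replicate 2.

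The intronic ERE of Greb1 lay 40349 bp downstream of the first start, at chr12:16760531-16760543, and reads GGTCATCCTGACC. An ERE was searched as GGTCA and TGACC separated by any 3 bases, with 0 or 1 mismatch in those 10 letters. The pattern is its own reverse complement, so that a single search covers both strands. The site matches with 0 mismatches. A merged region over it, chr12:16760378-16760702, was called in vehicle replicates 2 and 3 and in E2 replicate 1. The fold enrichments there were 2.22, 2.97 and 3.11, the −log10 q values 0.00153, 0.593 and 0.857, and the summit pileups 3, 5 and 6 tags. The summits lay 27, 34 and 96 bp from the centre of the element and 3200 to 3323 bp upstream of the start of the protein-coding transcript Greb1-201, which begins 43645 bp into the locus.

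None of the 6 libraries given fulvestrant had a summit within 250 bp of the element, against 3 of the 6 without it. Of the regions called in exactly 3 libraries, 12.7% had all 3 among the libraries without fulvestrant. Pooled over the genome, 2367 elements with 0 mismatches were found, of which 152 (6.42%) had a summit within 100 bp in at least 1 library and 5 (0.211%) in at least 3. The Greb1 site was among those 5. It was singled out for its sequence after the summits had been seen, and none of its 3 peaks reached a q of 0.05.

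A further element with 0 mismatches lay upstream of Greb1, at −47249 bp, with the nearest summit 399 bp away, in E2 replicate 2. Windows holding at least 2 such elements were 0.711% of the windows of 21938 protein-coding genes, and windows with at least 1 were 9.86%. Of the 5 Greb1 elements with 1 mismatch, the one 98249 bp downstream of the start had a summit 55 bp away in vehicle replicate 2, and the one at 35973 bp had a summit 144 bp away in E2 replicate 2. The other 3, at 10270, 22087 and 127549 bp, had no summit within 250 bp in any library. Thus 4 of the 7 Greb1 elements had no summit within 250 bp.

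The other Greb1 region with summits inside the window in at least 4 libraries was chr12:16810769-16811834. It lay 10040 to 10373 bp upstream and covers the start of E2f6, which encodes a repressive E2F family member and is transcribed away from Greb1. It was called in vehicle replicate 3, E2 replicate 1, E2 plus fulvestrant replicate 1 and fulvestrant replicate 1, which is 1 library for each treatment. The fold enrichments were 4.29, 4.23, 3.45 and 4.13 and the −log10 q values 2.70, 3.03, 1.42 and 2.74. These were the 4 lists with the highest share of peaks at q of 0.05 or less (46.4%, 38.8%, 41.1% and 41.3%, against at most 24.7% in the others). The part of list quality in these calls was not tested.

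Regions called in 3 libraries were also seen near the 3′ end of Greb1, at chr12:16672196-16672776 and chr12:16674731-16675230, where the antisense gene Gm48140 overlaps, and at chr12:16837476-16838013 inside E2f6. The fold enrichments over these 3 regions ranged from 2.48 to 3.99. The region at chr12:16674731-16675230 was called in E2 replicates 1 and 2 and in E2 plus fulvestrant replicate 2, with −log10 q of 2.27, 0 and 0.255. The other 2 regions were each called in 1 vehicle, 1 E2 and 1 fulvestrant library.

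At the Greb1 promoters, a summit lay within 3000 bp of any of the 12 annotated transcript starts in 7 libraries. These were 2 of 3 with vehicle, 3 of 3 with E2, 1 of 3 with E2 plus fulvestrant and 1 of 3 with fulvestrant. The share of protein-coding genes called by this rule had a median of 36.9% over the libraries. Of the promoters called in any library, 2.36% were called in 3 of 3 E2 libraries and at most 1 of 3 E2 plus fulvestrant libraries. Most of these Greb1 summits lay at starts of retained-intron transcripts within the gene. At the first start there was a peak in vehicle replicate 2 (1025 bp upstream, fold enrichment 2.22) and in E2 replicate 2 (1090 bp upstream, fold enrichment 2.80), both within the noncoding gene Gm48227. No summit lay within 3000 bp of the start of Greb1-201. When only starts of protein-coding transcripts were used, an alternative chosen after the values were seen, the call was made in 3 libraries (vehicle replicate 2, E2 replicates 1 and 2). With all starts but only peaks of q of 0.05 or less, the call was made in E2 replicate 1 alone, 114 bp from the start of the retained-intron transcript Greb1-209.

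The number of Greb1 peaks was 13, 12 and 7 in vehicle replicates 1 to 3, and 13, 12 and 5 in the E2 replicates. It was 6, 6 and 2 in the E2 plus fulvestrant replicates and 7, 8 and 6 in the fulvestrant replicates. E2 plus fulvestrant was the lowest group and did not overlap with vehicle, as at 5.68% of loci, while E2 replicate 3 (5 peaks) fell inside the E2 plus fulvestrant range. Per 10000 list peaks, E2 plus fulvestrant (0.596 to 1.65) and vehicle (1.08 to 1.68) did overlap. The commonest background did not overlap between these 2 groups. It was 0.713 to 1.018 tags per window with vehicle and 1.022 to 1.114 with E2 plus fulvestrant. The part of depth in the difference was not tested. The window held 0.906 to 3.81 times as many peaks per length as the whole list of the same library (median 2.45). The whole list was taken over full chromosome lengths, so the ratio does not set Greb1 against other gene windows.

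The E2 libraries had a mean of 10.0 ± 4.36 Greb1 peaks (SD, n = 3). Those given fulvestrant as well had 4.67 ± 2.31 (SD, n = 3), a difference of 5.33 (exact permutation test, two-sided, p = 0.30). The E2 library was higher in 3 of 3 replicate numbers, as at 7.81% of 21291 loci of protein-coding genes. Scaled to 10000 list peaks, the means were 1.90 ± 0.491 and 1.08 ± 0.533 (SD), again with E2 higher in 3 of 3 numbers, as at 9.38% of loci. The difference was 2.33 peaks with lists cut to the length of the shortest (exact permutation test, two-sided, p = 0.30) and 1 peak among those with q of 0.05 or less (exact permutation test, two-sided, p = 1). In the gene body alone the E2 libraries had a mean of 8 peaks against 3 and did not overlap with E2 plus fulvestrant (exact permutation test, two-sided, p = 0.10), as at 1.53% of 17372 gene bodies. A p of 0.10 is the smallest p that 3 libraries against 3 can give, so no comparison here could pass 0.05. The Benjamini-Hochberg adjusted p over all loci was 1 for both genes in all 4 comparisons (exact permutation test).

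Between vehicle and E2 the Greb1 means were 10.7 ± 3.21 and 10.0 ± 4.36 peaks (SD, n = 3), a difference well inside the spread (exact permutation test, two-sided, p = 0.90). Its sign turned per 10000 list peaks, where E2 was 0.449 above vehicle (exact permutation test, two-sided, p = 0.50). With E2 plus fulvestrant the mean was lower than with vehicle, with a difference of −6 peaks (exact permutation test, two-sided, p = 0.10), and 5.68% of loci had every vehicle library above every E2 plus fulvestrant library. This gap was 0 when all lists were cut to the length of the shortest, and also 0 among peaks with q of 0.05 or less. With fulvestrant the mean was 7 ± 1 (SD, n = 3) against 10.7 with vehicle (exact permutation test, two-sided, p = 0.30), lower in 3 of 3 replicate numbers, as at 17.3% of loci. Per 10000 list peaks that order was turned around, at 1.82 ± 0.793 with fulvestrant and 1.45 ± 0.319 with vehicle (SD).

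**Figure D3:**
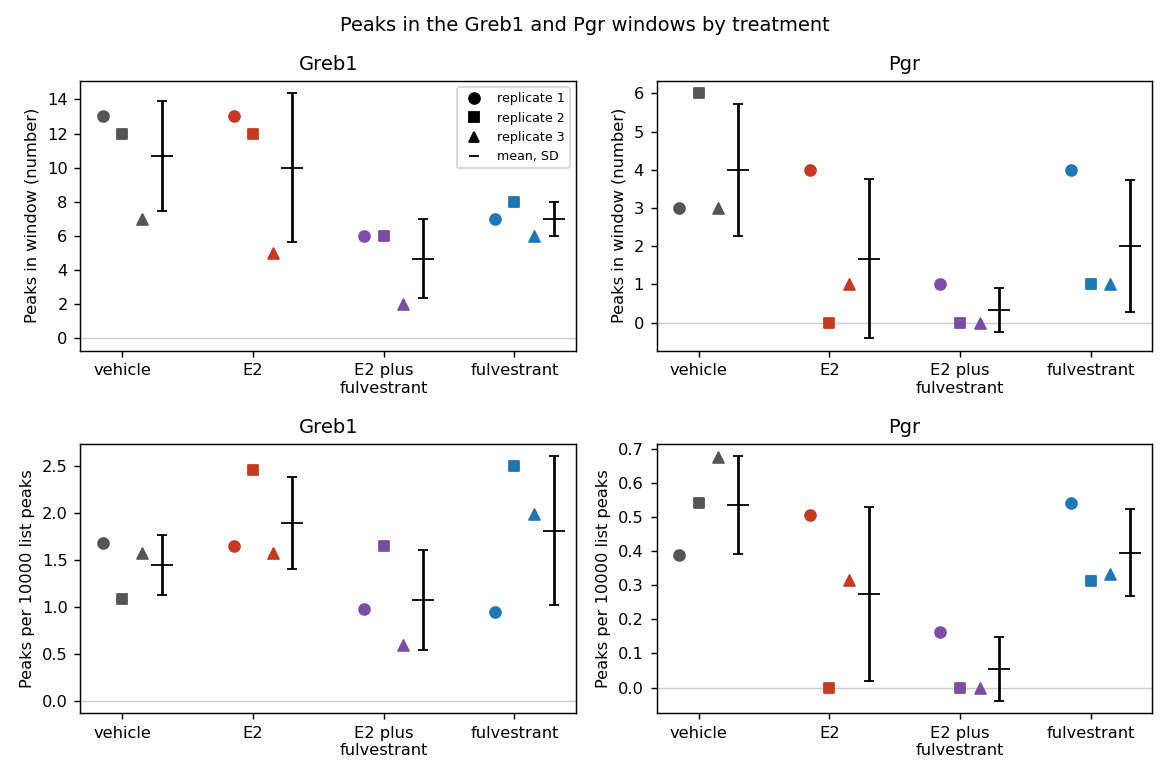
Peaks in the Greb1 (left) and Pgr (right) windows for each library, as numbers (top) and per 10000 peaks of the list (bottom), by treatment. Points are libraries with a shape for each replicate number, and bars are the mean with SD (n = 3). E2 plus fulvestrant has the lowest mean in each panel, and at Greb1 its libraries overlap with those of E2.

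The Pgr window was sparser. Its 24 peaks fell into 19 merged regions, 17 called in 1 library, 1 in 2 and 1 in 5, and 15 summits were intronic, 4 exonic and 5 upstream. Fold enrichments ranged from 2.22 to 4.45 (median 2.95) and pileups from 3 to 7 tags, and 4 peaks had a q of 0.05 or less. Peaks per length were 0 to 1.56 times those of the whole list over full chromosome lengths (median 0.748). Unlike at Greb1, no site was called in all libraries, and E2 replicate 2 and E2 plus fulvestrant replicates 2 and 3 had no peak in the window.

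**Figure D4:**
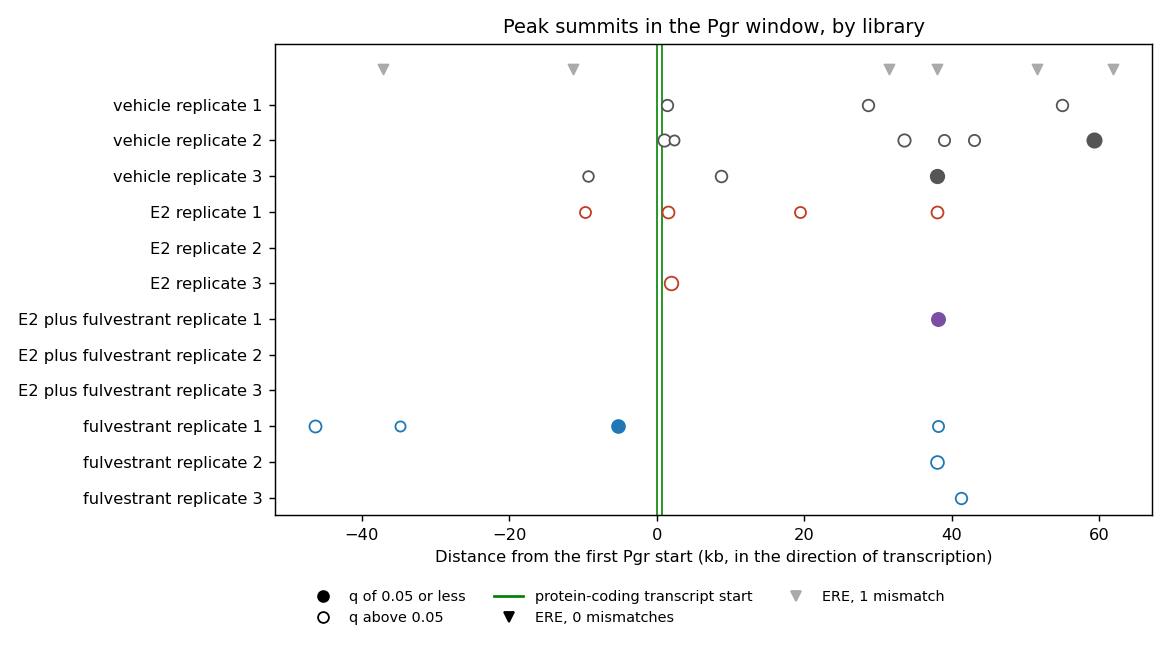
Summits of the 24 peaks in the Pgr window, by library (rows) and distance from the first start in kb (x axis), with circle area for fold enrichment, filled circles for q of 0.05 or less, green lines for protein-coding starts and grey triangles for EREs with 1 mismatch. The recurrent site, 37965 to 38183 bp into the gene, is called in 5 libraries, and the summits next to the starts are in vehicle and E2 libraries.

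The recurrent Pgr region was intronic, at chr9:8937672-8938147, with summits 37965 to 38183 bp downstream of the first start. It was called in vehicle replicate 3, E2 replicate 1, E2 plus fulvestrant replicate 1 and fulvestrant replicates 1 and 2. The fold enrichments were 3.97, 3.11, 3.80, 2.71 and 3.59, and the −log10 q values 2.07, 0.857, 1.86, 0.403 and 0.819. Every treatment had at least 1 call, and the values with and without fulvestrant overlapped. The 5 libraries are those with the highest shares of peaks at q of 0.05 or less, the lowest of them 24.7% in fulvestrant replicate 2. The part of list quality in these calls was not tested.

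This region holds the ERE printed above, GGTCACAGTGAAC at chr9:8937849-8937861, which has 1 mismatch and lies 38022 bp into the gene. The nearest summit, in vehicle replicate 3, was 16 bp from its centre, and 3 libraries had a summit within 100 bp (vehicle replicate 3, E2 replicate 1 and fulvestrant replicate 2). The genome held 71428 elements with 1 mismatch, and 159 of them (0.223%) had a summit within 100 bp in at least 3 libraries. The Pgr element was among those 159. It was singled out because summits lay near it, so the share is a description and not a test. The 5 other elements with 1 mismatch in the Pgr window, from −37195 bp to 61807 bp, had no summit closer than 1724 bp. No element with 0 mismatches was found in the Pgr window.

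Near the Pgr starts, peaks were called in vehicle replicates 1 and 2 and in E2 replicates 1 and 3, and in none of the 6 libraries given fulvestrant. Of the promoters called in any library, 0.377% were called in at least 4 of 6 libraries without and 0 of 6 with fulvestrant. That share is over promoters called in any number of libraries, not over those called in 4. The Pgr pattern was noticed after the values were seen, and the part of list length in it was not tested. The summits lay 1314 bp downstream of the first start in vehicle replicate 1, 994 and 2330 bp in vehicle replicate 2, 1551 bp in E2 replicate 1 and 1908 bp in E2 replicate 3. Their fold enrichments were 2.87, 3.34, 2.22, 3.11 and 4.04, and no −log10 q was over 1.21. Only the peaks of vehicle replicate 1 and E2 replicate 1 overlapped, so the 5 peaks marked 4 separate places, and with q of 0.05 or less no library had a promoter call.

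The number of Pgr peaks was 3, 6 and 3 in vehicle replicates 1 to 3, and 4, 0 and 1 in the E2 replicates. It was 1, 0 and 0 in the E2 plus fulvestrant replicates and 4, 1 and 1 in the fulvestrant replicates. The vehicle libraries were all above the E2 plus fulvestrant libraries, as at 5.68% of loci, and the E2 and fulvestrant libraries spread across most of the range.

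The Pgr mean was 1.67 ± 2.08 peaks (SD, n = 3) in the E2 libraries against 0.333 ± 0.577 (SD, n = 3) where fulvestrant was added to E2 (exact permutation test, two-sided, p = 0.70). It was 4 ± 1.73 with vehicle (SD, n = 3), with exact two-sided permutation p of 0.30 against E2, 0.30 against fulvestrant (2 ± 1.73, SD) and 0.10 against E2 plus fulvestrant. Per 10000 list peaks, vehicle had 0.535 ± 0.144 and E2 plus fulvestrant 0.0547 ± 0.0948 (SD), again without overlap (exact permutation test, two-sided, p = 0.10), as at 4.1% of loci. When the lists were cut to the length of the shortest, that difference was −0.333 peaks (exact permutation test, two-sided, p = 1). The E2 plus fulvestrant lists held 33536 to 60924 peaks and the vehicle lists 44358 to 110724, and the part of list length in the difference was not tested beyond these scalings. Their commonest backgrounds did not overlap (1.022 to 1.114 and 0.713 to 1.018 tags per window), and the part of depth was not tested.

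Other sequence motifs were searched within 100 bp of the middle summit of each region, on both strands. AP-1 sites (TGACTCA or TGAGTCA) were found in 7 of 63 Greb1 regions and 1 of 19 Pgr regions, against 3.996% of all regions in the genome. GC boxes (GGGCGG) were found in 4 of 63 Greb1 regions and 0 of 19 Pgr regions, against 5.02% of all regions. EREs with 0 or 1 mismatch were found in 2 of 63 Greb1 regions and 1 of 19 Pgr regions, against 0.698% of all regions. These motifs do not overlap with each other in the letters searched, apart from the TGAC shared by AP-1 and ERE.

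A list of 17 other genes of the estrogen pathway was read the same way, among them the receptor gene Esr1, its corepressor gene Nrip1, and the target genes Igf1, Myc and Ccnd1. Peak number was higher with E2 than with E2 plus fulvestrant in 3 of 3 replicate numbers at 2 of the 17, Igf1 and Myc, against 7.81% of all loci. The mean was higher with E2 at 10 of the 17, against 53.1% of loci. The median difference over the 17 was 0.333 peaks, as over all 21291 loci (0.333). Igf1, which encodes a growth factor, had 3 ± 1 peaks in the E2 libraries and 2 ± 1 where fulvestrant was added (SD, n = 3; exact permutation test, two-sided, p = 0.50). Myc, which encodes a growth-promoting transcription factor, had 2 ± 1.73 and 0.667 ± 1.15 (SD, n = 3; exact permutation test, two-sided, p = 0.50). Esr1 had 12.3 ± 3.51 and 9.33 ± 4.04 (SD, n = 3; exact permutation test, two-sided, p = 0.50). The smallest exact permutation p among the 17 was 0.40. With 3 libraries against 3 it could not go below 0.10, so none of the 17 could have passed 0.05.

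The genes whose windows were most like Greb1 in peaks per 10000 list peaks over the 12 libraries were 2210408I21Rik (Pearson's r = 0.87), Pax7 (0.86) and Rap1gds1 (0.86), of 19591 compared. Those most like Pgr were Sfmbt2 (0.90), Tagap1 (0.89) and Cmah (0.87), of 19592 compared. The 12 points of each correlation share list length and depth, and the values are a description of the highest among many.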

How the data were processed

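ATAC-seq peak lists, 1 per library with no pooling, were used as deposited. Per the methods of the study and the submitters' processing notes, the authors trimmed reads with Trimmomatic 0.39, aligned them to mm10 with Bowtie2, removed duplicates with Picard 2.21.4 and called peaks with MACS2 (2.2.71 in the notes). The deposited values of a peak are its fold enrichment (the ratio of summit pileup to local background) and its p and q on the −log10 scale. The deposited whole-number score was not used. The smallest −log10 p in any list was 2.01. Read counts were not analysed here, and peaks in excluded genome regions were kept.

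Summits were assigned to GENCODE M21 genes and sequences read from GRCm38. Its chromosome lengths contained all 656091 peaks on numbered or sex chromosomes, and the other peaks were not checked. Overlapping peaks were merged into regions. Pileup and background, which give relative depth only, were solved from fold enrichment and −log10 p (tolerance 0.01 at the named loci, 0.002 over the lists). No intervals were computed, and tag numbers carry counting error. Peak numbers were tested over libraries with the exact permutation test, two-sided, and adjusted by Benjamini-Hochberg over all loci. Regions called in at least 4 libraries, promoter calls within 3000 bp, pathway genes, EREs and the 3 most similar genes were named. The members and lists were chosen with earlier results of these data known. Window, threshold, scaling, left-out libraries and replicate numbers were varied. Counting and element search were tested on simulated data. Python 3.11.15, SciPy 1.17.1 and pysam 0.24.0 were used. The sequence under the strongest Greb1 peak is not reported here.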

Additional observations from a re-analysis of the deposited data

How the results depend on the processing

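All differences here are in mean peak number. The sign of E2 minus E2 plus fulvestrant at Greb1 was kept under 17 of 18 alternatives. That difference went from 5.33 to 2.33 with lists cut to the shortest and to 1 among peaks with q of 0.05 or less. The sign of E2 plus fulvestrant minus vehicle at Pgr was kept under 15 of 16. Both counts include blocking by replicate number, which cannot change a difference of means. At Greb1 the count also includes removal of the strongest region, which was called in every library and cannot change it either. The other alternatives reuse the same libraries, so the counts are not independent checks. With −log10 q of at least 5 only the strongest Greb1 region was left, and all 4 differences were 0 at both genes. Among peaks with q of 0.05 or less, E2 minus vehicle at Greb1 became 1, fulvestrant minus vehicle 1.67 and E2 plus fulvestrant minus vehicle 0, while E2 minus E2 plus fulvestrant at Pgr became −0.333. With lists cut to the shortest, E2 minus vehicle at Greb1 became 2.33, fulvestrant minus vehicle 3 and E2 plus fulvestrant minus vehicle 0, and at Pgr E2 minus E2 plus fulvestrant became 0 and fulvestrant minus vehicle 0.333. Per 10000 list peaks, E2 minus vehicle at Greb1 became 0.449 and fulvestrant minus vehicle 0.369, and in the gene body alone E2 minus vehicle became 0.333. Within replicate number 1, E2 minus vehicle was 0 at Greb1 and 1 at Pgr, and fulvestrant minus vehicle was 1 at Pgr. The cause of these shifts was not tested.

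Leaving out 1 library at a time, E2 minus vehicle at Greb1 ranged from −2.50 to 1.83 (−0.667 with all), turning positive without E2 replicate 3 (1.83) or vehicle replicate 1 (0.500) and reaching 0 without vehicle replicate 2. E2 minus E2 plus fulvestrant ranged from 3.83 to 7.83 at Greb1 and from 0.167 to 2.17 at Pgr, where it was 0.167 without E2 replicate 1 and 2.17 without E2 replicate 2. Without vehicle replicate 2 the Pgr differences from vehicle were smaller, −1.33 for E2 and −1 for fulvestrant, and without fulvestrant replicate 1 the latter was −3. The differences other than E2 minus vehicle at Greb1 kept their sign. Leaving out the strongest region could not change any Greb1 difference, because every library had 1 peak there. With that region and the E2f6 promoter left out, all 4 Greb1 differences kept their sign. Both choices were made after seeing the data.

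Deviations of same-numbered libraries correlated at 0.0435 to 0.228 between E2 and E2 plus fulvestrant and at −0.0470 to 0.172 in the other comparisons, so not every pair passed 0.1 and the numbers were not taken to pair the libraries. The 4 libraries numbered 1 did share a low number of chromosome Y peaks (22 to 36, against 854 to 1148). With the replicate block the differences are unchanged (5.33 at Greb1 and 1.33 at Pgr for E2 minus E2 plus fulvestrant), and the exact sign-flip permutation p was 0.25 and 0.50, where 0.25 is the smallest it can give. Every library correlated best with its own number for E2 and E2 plus fulvestrant, and not in the other 3 comparisons, which is a hint from the data only. Depth limits what could be seen: outside the strongest region the peaks rest on 3 to 10 tags.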
